A study of Mus musculus with 4 samples.

Results

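The 42 genes described here encode the metalloproteinases that cut extracellular matrix and their inhibitors, namely 19 matrix metalloproteinases (MMPs), 4 tissue inhibitors of metalloproteinases (TIMPs) and 19 ADAMTS proteases. They were chosen as a list of symbols, and each symbol matched 1 of the 55385 gene IDs in the table. RNA was measured in lymphatic endothelial cells (LECs), gated as CD45- PDPN+ CD31+, of peripheral trunk tissue of E13.5 mouse embryos. The Osr1controls group (2 libraries) was sorted from *Osr1*+/+ and *Osr1*GCE/+ embryos by the study's account and carries a wild type label in the deposited records, and the other group (2 libraries) is labelled Osr1GCE/GCE. In the GCE allele a reporter that encodes eGFP fused to CreERT2 sits at *Osr1*, a transcription factor gene of the mesenchyme, so the allele is carried by every cell of the embryo and not by LECs alone. Each library held the cells of 8 to 10 pooled embryos, and how many embryos of each control genotype entered a pool is not given in the sources used here.

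MMPs are zinc proteases that are made as inactive precursors, and many degrade collagens, basement membrane and proteoglycans once the propeptide has been removed. Secreted members act in the matrix, membrane members at the cell surface, and MMP14 at the surface activates pro-MMP2 together with TIMP2. TIMPs block the active site of MMPs, and TIMP3 also inhibits several ADAMTS enzymes. ADAMTS proteases include the procollagen N-propeptidases, the versican and aggrecan cleaving enzymes, and ADAMTS3, which with CCBE1 processes VEGFC into the form that drives lymphatic growth.

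The libraries held 31586765 to 53438492 reads in genes, and Osr1controls replicate 1 was the deepest. Values below are normalised read counts, which are reads divided by the library's size factor, or TPM, which also divide by exon length and allow levels of different genes to be compared. Summed over 10 LEC markers, levels were 2183 and 2913 TPM in Osr1controls replicates 1 and 2 and 3906 and 3729 TPM in replicates 1 and 2 labelled Osr1GCE/GCE, so LEC genes were abundant in every library. *Osr1* had normalised counts of 32.8 and 30.4 in Osr1controls and of 168 and 303 in the other group (adjusted p = 0.0262, log2 fold change 2.80). Reads over the whole gene do not tell the GCE allele from an intact one, so the groups are named by their labels. *Pdpn*, used in the sort, was higher in the labelled libraries (0.61, adjusted p = 0.0329), and *Pecam1*, which encodes CD31, had a log2 fold change of 0.23 (adjusted p = 0.204).

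Promoters of 6 members are shown, since the short motifs they hold are not the same. Of these, 3 are of genes with many reads in these libraries and 3 of genes with few reads. Of the 42 members 28 have an entry in the RefSeq promoter table (GRCm38.p6), and the windows printed hold up to 250 bases before the transcription start. Capitals mark 3 motifs sought on both strands, which are the TATA box TATAAA, the GC box GGGCGG and the AP-1 site TGANTCA. *Adamts2* is the only member called in the comparison with limma described below, a call that several alternatives lost. *Adamts1* is the highest ADAMTS gene and *Mmp14* the highest MMP gene with an entry. *Mmp13*, *Mmp3* and *Mmp10* lie in the MMP gene cluster of chromosome 9.
Adamts2, chr11:50601835-50602083, plus strand: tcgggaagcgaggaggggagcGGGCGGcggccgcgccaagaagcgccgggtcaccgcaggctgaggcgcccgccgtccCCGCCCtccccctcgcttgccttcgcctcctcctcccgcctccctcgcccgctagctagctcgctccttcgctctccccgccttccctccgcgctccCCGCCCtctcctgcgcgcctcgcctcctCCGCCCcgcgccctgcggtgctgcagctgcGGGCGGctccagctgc
Adamts1, chr16:85803114-85803363, minus strand: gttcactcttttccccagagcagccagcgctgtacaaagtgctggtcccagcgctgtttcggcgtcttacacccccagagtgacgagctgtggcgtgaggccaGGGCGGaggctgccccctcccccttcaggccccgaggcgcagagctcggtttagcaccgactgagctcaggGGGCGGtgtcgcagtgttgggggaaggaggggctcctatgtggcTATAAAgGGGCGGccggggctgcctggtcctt
Mmp14, chr14:54431348-54431597, plus strand: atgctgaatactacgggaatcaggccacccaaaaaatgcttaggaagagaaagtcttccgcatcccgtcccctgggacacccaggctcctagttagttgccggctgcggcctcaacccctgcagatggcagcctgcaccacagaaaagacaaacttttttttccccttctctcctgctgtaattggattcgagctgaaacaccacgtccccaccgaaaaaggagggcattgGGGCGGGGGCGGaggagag
Mmp13, chr9:7272264-7272513, plus strand: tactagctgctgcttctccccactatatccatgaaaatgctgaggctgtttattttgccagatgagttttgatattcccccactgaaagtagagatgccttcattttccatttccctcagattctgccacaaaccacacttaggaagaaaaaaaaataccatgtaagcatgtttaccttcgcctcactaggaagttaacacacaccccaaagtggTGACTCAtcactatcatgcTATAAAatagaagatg
Mmp3, chr9:7445572-7445821, plus strand: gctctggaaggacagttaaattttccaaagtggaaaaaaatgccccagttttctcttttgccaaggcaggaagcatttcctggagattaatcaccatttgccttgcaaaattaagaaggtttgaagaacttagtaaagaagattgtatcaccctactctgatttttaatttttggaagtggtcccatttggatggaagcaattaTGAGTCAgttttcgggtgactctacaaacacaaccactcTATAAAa
Mmp10, chr9:7502092-7502341, plus strand: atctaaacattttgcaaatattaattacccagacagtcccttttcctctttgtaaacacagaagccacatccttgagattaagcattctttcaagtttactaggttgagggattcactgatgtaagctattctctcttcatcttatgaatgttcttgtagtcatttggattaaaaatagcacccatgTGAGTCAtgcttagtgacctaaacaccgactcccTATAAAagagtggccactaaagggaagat
The GC box stands in the first group and the AP-1 site in the second, and *Adamts1* has both GC boxes and a TATA box.

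Motifs were also counted over all members with a promoter entry, the printed ones included. Members with a mean normalised count of at least 10, which are those tested below, were set against those under it. *Mmp13*, shown above with the genes of few reads, falls among the tested members here. GGGCGG was present in 16 of 21 tested members with an entry and in 0 of 7 untested ones, against 32.7% of all 32851 promoters. TGANTCA was present in 1 of 21 tested members, *Mmp13*, and in 4 of 7 untested members, *Mmp3*, *Mmp7*, *Mmp10* and *Mmp12*, against 6.75% of all promoters. TATAAA was found in 2 of 21 and 4 of 7, against 12.4%. The median GC content of the 250 bases was 65.2% in the tested members and 40.0% in the untested ones, and 52.4% over all promoters. The members with TGANTCA are neighbours in the MMP gene cluster of chromosome 9, so they are not independent cases. These matches describe letters only, and the groups of genes are small.

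Of the 42 members 35 passed the filter and were tested, which were 13 MMP, 4 TIMP and 18 ADAMTS genes. The 7 that did not pass were *Mmp3*, *Mmp7*, *Mmp8*, *Mmp10*, *Mmp12*, *Mmp21* and *Adamts13*, the last of which encodes the protease that cuts von Willebrand factor. Their reads summed over the 4 libraries ran from 0 for *Mmp7* to 12 for *Mmp21*, and no library held more than 5 reads of any of them. Among the tested members *Mmp13*, an interstitial collagenase, had the lowest mean normalised count (10.1).

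The low MMP genes lie side by side. The cluster at chr9:7272514-7699585 of mm10 spans 427 kb and 10 genes, including *Mmp1a*, *Mmp1b*, *Mmp20* and *Mmp27*, which are no members here. All 10 genes together had 63 reads in the 4 libraries, of which 40 were from *Mmp13*, and 4 of the genes had no read. A count of 0 in a library allows up to 3 reads there, so these genes were at or near the limit of detection rather than shown to be absent, and such limits cover counting error only.

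Levels of the remaining members were concentrated in a few genes. *Timp3*, which encodes an inhibitor bound to matrix, had the highest level, with 208 and 225 TPM in Osr1controls and 286 and 234 TPM in the libraries labelled Osr1GCE/GCE. *Mmp2*, which encodes gelatinase A, followed with 236, 232, 245 and 220 TPM in the same order of libraries. *Mmp14*, the membrane type activator of pro-MMP2, had 212, 214, 232 and 230 TPM. The ranges of these 3 genes overlapped, so their order is not resolved by the spread between libraries. *Timp2*, the inhibitor that takes part in pro-MMP2 activation, had 190 to 201 TPM and lay below all 3 in every library. *Adamts1*, which encodes a versican and aggrecan cleaving protease, spread more widely, from 122 to 226 TPM, and *Mmp15*, a second membrane type MMP, ranged from 120 to 143 TPM.

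**Figure D1:**
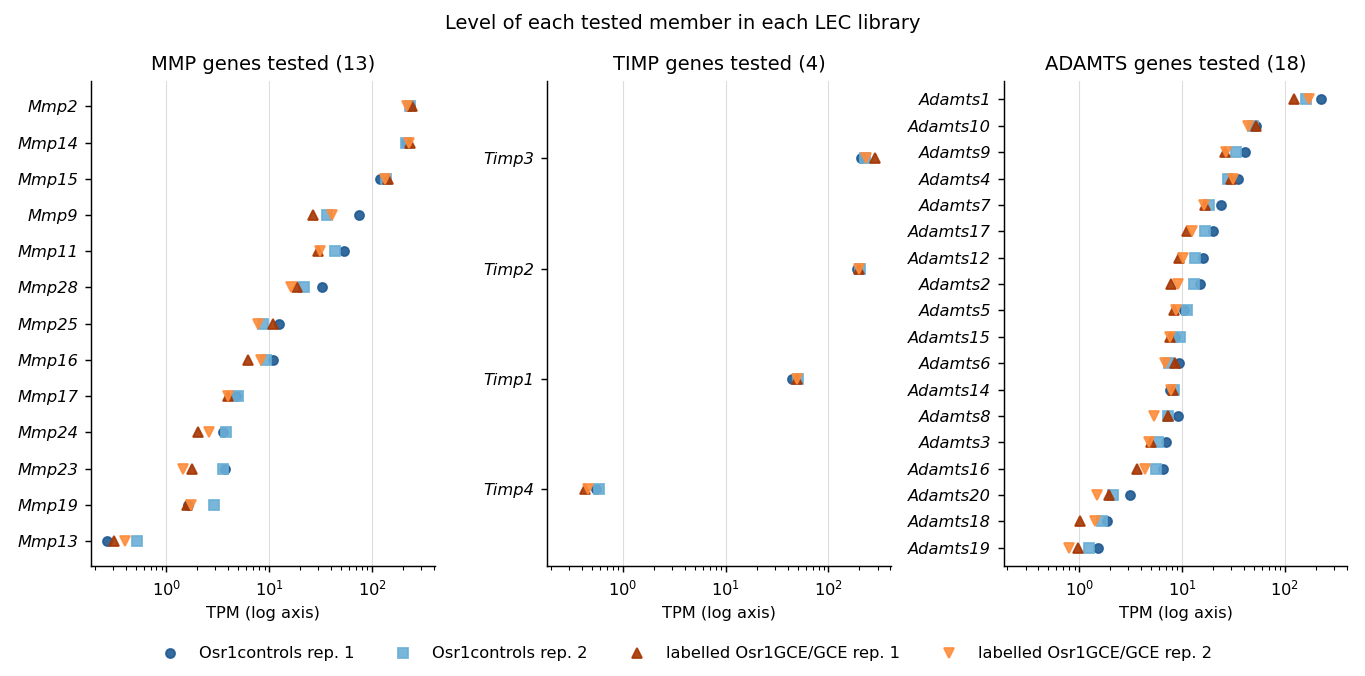
Level of the 35 tested members in TPM (log axis) in each of the 4 libraries, by family, with the genes of a family ordered by mean level. Mmp2, Mmp14 and Mmp15 lead the MMP genes, Timp3 and Timp2 the inhibitors, and Adamts1 stands well above the other ADAMTS genes; points are single libraries.

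*Mmp2*, *Mmp14* and *Mmp15* together made up 74.2% to 85.8% of the summed MMP level, *Timp2* and *Timp3* 89.2% to 90.7% of the summed TIMP level, and *Adamts1* alone 37.1% to 46.2% of the summed ADAMTS level. Summed MMP levels were 766 and 717 TPM in Osr1controls and 723 and 699 TPM in the libraries labelled Osr1GCE/GCE, and the groups overlapped (two-sided exact permutation p = 0.667). Summed TIMP levels were 443 and 478 TPM against 535 and 481 TPM, with replicate 2 of the labelled group close to control replicate 2. Summed ADAMTS levels were 495 and 393 TPM against 329 and 371 TPM, with both labelled libraries below both controls. For TIMP and ADAMTS genes the exact two-sided p was 0.33, the smallest that 2 libraries against 2 can give. TIMP level per unit of MMP level was 0.578 and 0.666 in Osr1controls and 0.740 and 0.689 in the labelled libraries.

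In the comparison of the groups across all genes with limma, *Adamts2* was the only member called, and no member was called higher. A call needed a log2 fold change of at least 0.3 in size and an adjusted p under 0.05 over all 19479 genes tested. It also needed a mean level over 1 TPM, so *Mmp13* (0.368 TPM) and *Timp4* (0.506 TPM) could not be called. Over all genes tested this rule called 341 lower (1.75%) and 221 higher (1.13%), so the 1 member called lower and 0 called higher of 35 are near the share of all genes. At an unadjusted p under 0.05 the members numbered 14 of 35, against 21.4% of all genes, and those with a negative log2 fold change numbered 12 of 35, against 13.0% of all genes. edgeR on recovered whole reads called 0 members, and 0.708% of all genes lower and 0.75% higher. DESeq2, the test named in the study's methods, was run here on the same recovered reads. It called 5 of the 35 members lower, *Adamts2* among them, and 1 higher. Over all genes it called 4.32% lower and 3.4% higher, so which members are called depends on the test.

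Below the threshold most members leaned to lower values in the libraries labelled Osr1GCE/GCE. The median log2 fold change of the 35 members was -0.32, against -0.02 over all genes tested, and 26 members had a negative value, against 52.8% of all genes. Both labelled libraries lay below both controls for 19 members (28.9% of all genes) and above both for 5 (24.7% of all genes). By family, the median was -0.32 for MMP genes (10 of 13 negative), 0.11 for TIMP genes (1 of 4 negative) and -0.33 for ADAMTS genes (15 of 18 negative). The median moved to -0.23 without Osr1controls replicate 1 and to -0.46 without Osr1controls replicate 2. It was -0.24 without replicate 1 labelled Osr1GCE/GCE and -0.30 without replicate 2 of that group.

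**Figure D2:**
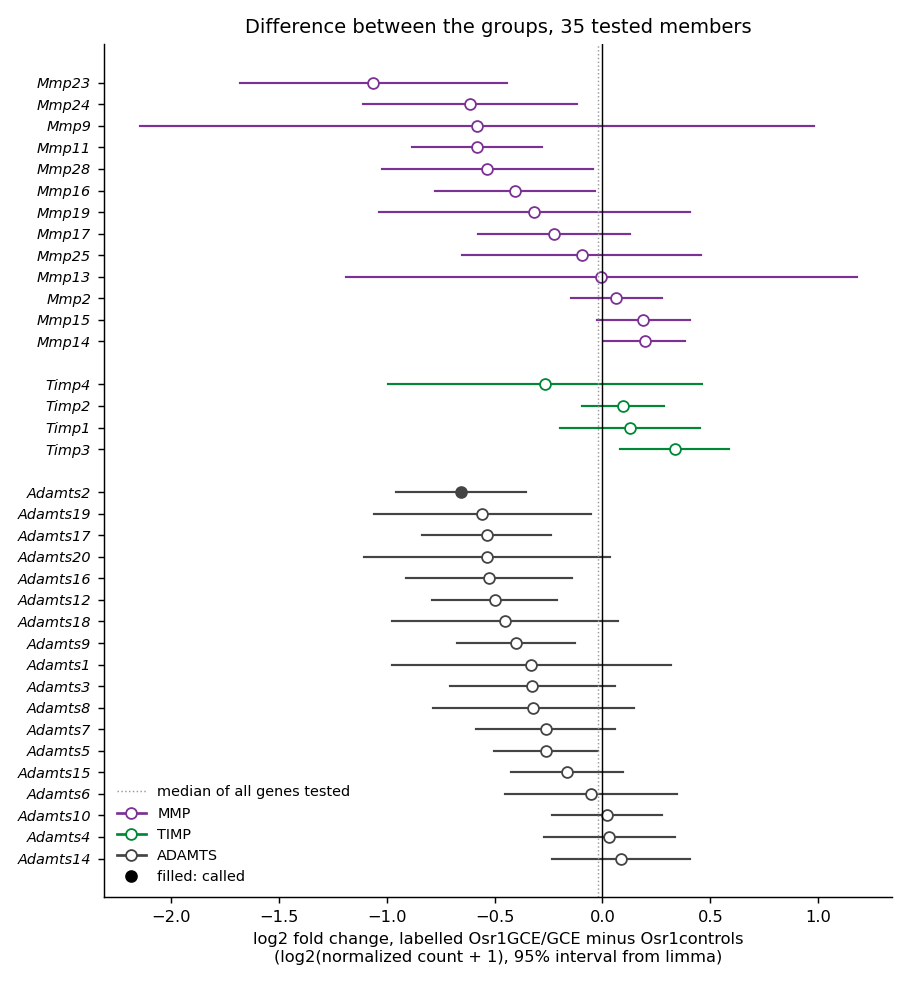
Log2 fold change of each tested member, libraries labelled Osr1GCE/GCE minus Osr1controls, on the log2(normalised count + 1) scale with its 95% interval from limma. Only the filled point, Adamts2 at -0.65, was called; most MMP and ADAMTS points lie left of 0 and 3 of 4 TIMP points right of it.

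Among the procollagen N-propeptidases, which remove the amino-terminal propeptide of fibrillar collagens, *Adamts2* was called lower. *Adamts2* (ENSMUSG00000036545.9, chr11:50602084-50807573 of mm10, plus strand) had normalised counts of 1434 and 1199 in Osr1controls replicates 1 and 2 and of 773 and 898 in replicates 1 and 2 labelled Osr1GCE/GCE. All values of the labelled group lay below both controls, and the difference exceeded the gap between replicates (0.26 and 0.22 on the log2 scale). The log2 fold change was -0.65 (standard error 0.13, 95% interval -0.96 to -0.35, adjusted p = 0.0440), or 0.636 times the control level. The call was lost without replicate 1 labelled Osr1GCE/GCE (adjusted p = 0.259), without replicate 2 labelled Osr1GCE/GCE (0.0676), with TMM scaling (0.0511), with edgeR (0.0666) and with limma without its trend and robust options (0.229). Its direction was the same in all alternatives, from -0.53 to -0.78.

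The paralogues of *Adamts2* did not pass the test. *Adamts3* (chr5:89677087-89883334), the member with the known part in VEGFC processing, had normalised counts of 388 and 318 in Osr1controls and of 286 and 275 in the libraries labelled Osr1GCE/GCE. The labelled libraries were the lower ones, and the log2 fold change of -0.33 did not pass the test (95% interval -0.71 to 0.06, adjusted p = 0.306). *Adamts14* (chr10:61197112-61273438) had 402 and 432 against 455 and 430, with overlapping groups (0.09, adjusted p = 0.775). *Adamts3* stood at 5.66 TPM on average, *Adamts14* at 8.00 TPM and *Adamts2* at 11.2 TPM.

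Of the 7 ADAMTS genes whose products cut versican, aggrecan and related proteoglycans, 6 had a negative value and 0 were called. *Adamts1* (chr16:85793827-85803113), which limits angiogenesis in mouse models, had normalised counts of 12216 and 8539 in Osr1controls and of 6875 and 9614 in the libraries labelled Osr1GCE/GCE. Replicate 2 of the labelled group lay above control replicate 2, so the groups overlapped, and the log2 fold change was -0.33 (standard error 0.24, adjusted p = 0.513). It was -0.07 without Osr1controls replicate 1, -0.09 without replicate 1 labelled Osr1GCE/GCE, -0.59 without Osr1controls replicate 2 and -0.57 without replicate 2 labelled Osr1GCE/GCE. *Adamts9* (chr6:92772699-92943492), a widely conserved versican-cleaving protease, had 6279 and 4957 against 4232 and 4214. Its labelled libraries were both low and close to each other, with a log2 fold change of -0.40 (standard error 0.12, adjusted p = 0.107).

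*Adamts4* (chr1:171250421-171260637), known as aggrecanase 1, had normalised counts of 1734 and 1342 in Osr1controls and of 1528 and 1592 in the libraries labelled Osr1GCE/GCE. The groups overlapped, and its log2 fold change of 0.03 (adjusted p = 0.919) turned to -0.04 with library totals and to -0.15 without Osr1controls replicate 2. *Adamts5*, *Adamts8*, *Adamts15* and *Adamts20*, the rest of this group, had log2 fold changes from -0.54 to -0.17 and mean levels from 2.17 to 9.63 TPM.

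Among the other ADAMTS genes, 7 of the 8 tested had a negative value and 0 were called. *Adamts17* (chr7:66839735-67153171), a protease linked to fibrillin microfibrils, had normalised counts of 1585 and 1278 in Osr1controls and of 932 and 1034 in the libraries labelled Osr1GCE/GCE. The groups were apart, and the log2 fold change of -0.54 did not pass (standard error 0.13, adjusted p = 0.0669). *Adamts12* (chr15:11064790-11349231), whose product cuts cartilage oligomeric matrix protein, had 1789 and 1438 against 1097 and 1173, with a log2 fold change of -0.50 (adjusted p = 0.0715). *Adamts7* (chr9:90163069-90208071), its nearest paralogue, had 1521 and 1153 against 1115 and 1091, and control replicate 2 was close to the labelled libraries (-0.26, adjusted p = 0.323).

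*Adamts10* (chr17:33524204-33553782), whose product binds fibrillin, was the second highest ADAMTS gene, with normalised counts of 4363 and 3973 in Osr1controls and of 4637 and 3849 in the libraries labelled Osr1GCE/GCE. These groups overlapped, and the value of 0.02 (adjusted p = 0.940) took a negative sign with library totals. *Adamts6*, *Adamts16*, *Adamts18* and *Adamts19* had log2 fold changes from -0.56 to -0.05 and mean levels from 1.14 to 8.04 TPM.

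Secreted and membrane MMP genes held 0 calls between them. *Mmp2* (chr8:92827291-92853420) had normalised counts of 8099 and 7767 in Osr1controls and of 8775 and 7844 in the libraries labelled Osr1GCE/GCE, with overlapping groups and a log2 fold change of 0.06 (95% interval -0.15 to 0.28, adjusted p = 0.735). That interval leaves out a change of the size seen for *Adamts2*. *Mmp11* (chr10:75923222-75936496), which encodes stromelysin 3, had 1513 and 1195 against 888 and 909. Both labelled libraries were below both controls, and the log2 fold change of -0.58 missed the threshold (standard error 0.13, adjusted p = 0.0566). With library totals limma called *Mmp11* lower (-0.65, adjusted p = 0.0434).

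*Mmp9* (chr2:164940780-164955850), which encodes gelatinase B, varied more between replicates than between groups. Its normalised counts were 2670 and 1281 in Osr1controls and 995 and 1531 in the libraries labelled Osr1GCE/GCE, so 1 control library stood above the rest and the other control lay between the labelled libraries. The log2 fold change was -0.58 with a standard error of 0.50 (adjusted p = 0.591), and it was -0.05 without Osr1controls replicate 1. The gap between the control replicates was 1.06 on the log2 scale. Myeloid cells are a known source of *Mmp9*. The 8 leukocyte markers summed to 183 and 191 TPM in Osr1controls and to 209 and 224 TPM in the labelled libraries, and *Mrc1*, which was called higher, made up 103, 112, 131 and 152 TPM of these sums. Without it, a split made after seeing the data, the other 7 summed to 80.6 and 79.1 TPM against 78.2 and 71.3 TPM. The 4 neutrophil markers, of which only *Mpo* had enough reads to be tested, summed to 0.325 to 5.31 TPM. The part of myeloid RNA in the level of *Mmp9* was not tested. *Mmp13*, *Mmp19* and *Mmp28*, the other secreted MMP genes tested, had log2 fold changes from -0.53 to -0.01.

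The 2 membrane type MMP genes with high levels leaned the other way. *Mmp14* (chr14:54431612-54445364) had normalised counts of 12871 and 12655 in Osr1controls and of 14721 and 14511 in the libraries labelled Osr1GCE/GCE. Replicates were within 0.03 on the log2 scale and the groups did not overlap, but the log2 fold change was only 0.20 (95% interval 0.01 to 0.38, adjusted p = 0.218). *Mmp15* (chr8:95352268-95375080) had 6617 and 7298 against 8237 and 7622, with a log2 fold change of 0.19 (adjusted p = 0.290).

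*Mmp23* (chr4:155650655-155653384), an MMP anchored through its propeptide, had the most negative value of all tested members. Its normalised counts were 87.6 and 81.6 in Osr1controls and 44.5 and 35.9 in the libraries labelled Osr1GCE/GCE, with a log2 fold change of -1.06 (standard error 0.27, adjusted p = 0.0738). At a mean of 2.61 TPM the gene was low, and edgeR on recovered reads also gave a log2 fold change of -1.06. *Mmp16*, *Mmp17*, *Mmp24* and *Mmp25*, the remaining membrane members, had log2 fold changes from -0.61 to -0.10 and mean levels from 3.0 to 9.97 TPM.

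The TIMP genes were the family with a positive median, and 0 of 4 were called, though *Timp4* at 0.506 TPM could not be. *Timp3* (chr10:86300372-86349506) had normalised counts of 17264 and 18228 in Osr1controls and of 24800 and 20170 in the libraries labelled Osr1GCE/GCE. Both labelled libraries were above both controls, and the log2 fold change of 0.33 did not pass the test (standard error 0.11, 95% interval 0.08 to 0.59, adjusted p = 0.134). DESeq2 called it higher (adjusted p = 0.0415), as did the fit without replicate 2 labelled Osr1GCE/GCE (0.0497). The reads of *Timp3* are uncertain in part, since 21.3% of its exon length overlaps *Syn3* on the other strand and the library kit does not mark strand. The same holds for *Mmp19* (22.3%, *Tmem198b*) and *Mmp24* (13.6%, *BC029722*), while other members overlap by at most 5.58%.

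*Timp2* (chr11:118301069-118355740) had normalised counts of 7544 and 7780 in Osr1controls and of 8232 and 8132 in the libraries labelled Osr1GCE/GCE (0.09, adjusted p = 0.560). *Timp1* (chrX:20870166-20874735) had 398 and 450 against 466 and 460 (0.13, adjusted p = 0.648). For both genes the labelled libraries were above both controls as normalised counts but not as TPM. *Timp4* (chr6:115241892-115252205) was at the lower end of the list, with 32.8 and 34.5 against 27.1 and 28.5 (-0.27, adjusted p = 0.677).

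A split by level was seen among the members and was chosen after their values were known. Of the 6 members with a mean of at least 100 TPM, 5 had a positive log2 fold change (*Timp3*, *Mmp2*, *Mmp14*, *Timp2* and *Mmp15*) and *Adamts1* a negative one. With library totals *Mmp2* turned to -0.0073. Of the 29 tested members under 100 TPM, 25 were negative, with a median of -0.33. Spearman's rho between mean TPM and log2 fold change was 0.42 across the 35 members and 0.18 across all genes tested, given as a description since all points share the same 4 libraries and genes are not independent replicates.

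**Figure D3:**
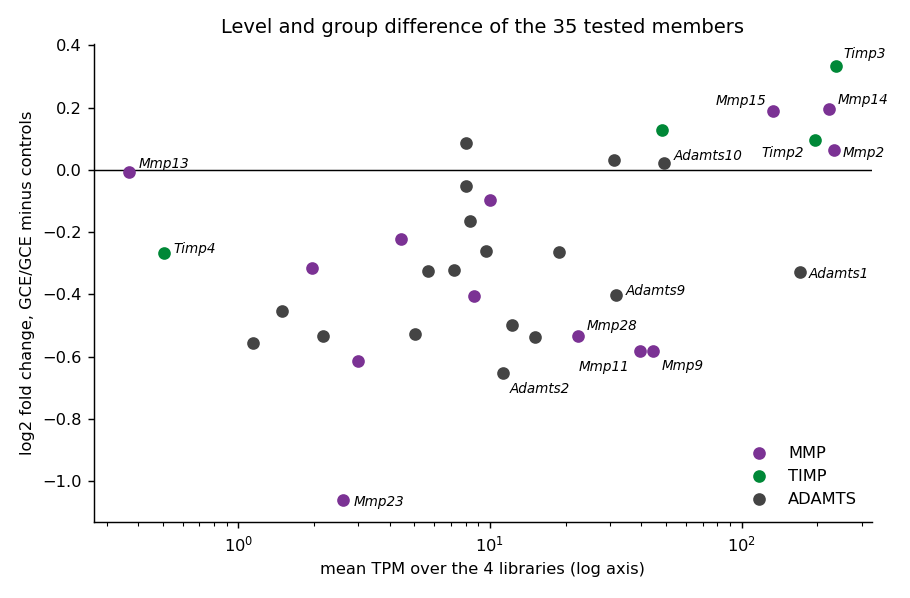
Mean TPM over the 4 libraries (log axis) against log2 fold change, labelled Osr1GCE/GCE minus Osr1controls, for the 35 tested members coloured by family. The 5 points at the upper right are Timp3, Mmp14, Mmp15, Timp2 and Mmp2, and Adamts1 is the 1 member over 100 TPM that lies below 0.

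Osr1controls replicate 1 weighed on many of these differences. It was the highest of the 4 libraries for 20 of 35 tested members (26.7% of all genes tested), and replicate 2 labelled Osr1GCE/GCE was the highest for 0 (18.8% of all genes tested). With Osr1controls replicate 1 left out, *Mmp28* moved from -0.53 to -0.22, *Adamts9* from -0.40 to -0.23 and *Mmp11* from -0.58 to -0.41, while *Adamts2* kept its call (-0.53, adjusted p = 0.0475). Without Osr1controls replicate 2 the members called lower numbered 7 of 35, in a fit that called 5.49% of all genes lower. Without replicate 1 labelled Osr1GCE/GCE 0 members and 0.0616% of all genes were called lower, and without replicate 2 of that group 0 members and 0.981% of all genes. In such a fit 1 group has a single library, which is assumed to vary like those of the other group.

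**Figure D4:**
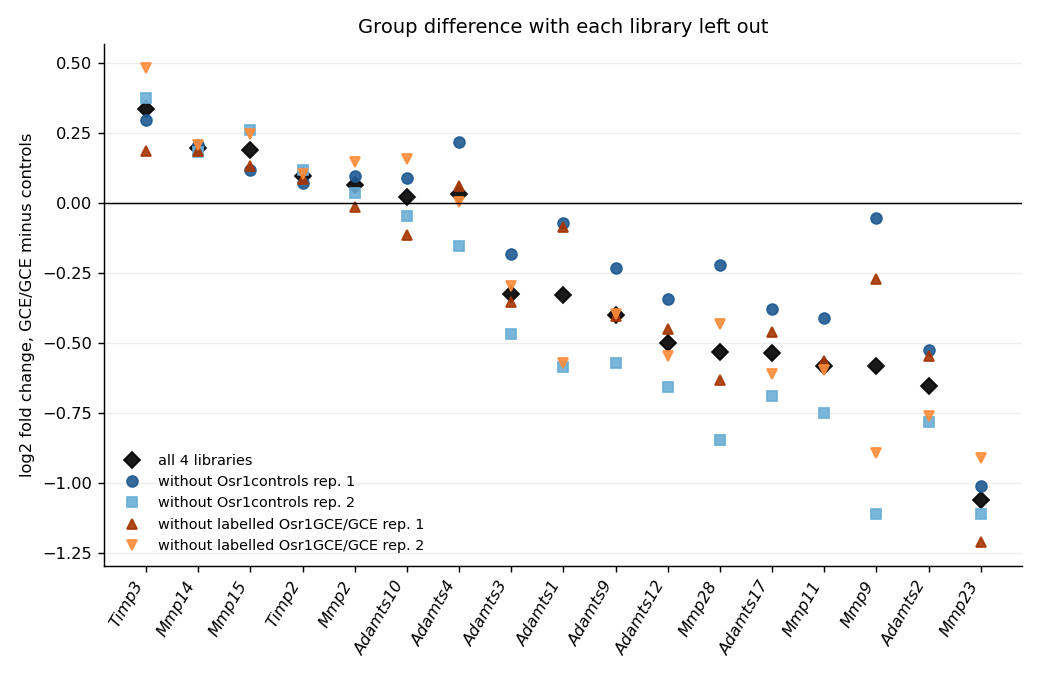
Log2 fold change (labelled Osr1GCE/GCE minus Osr1controls) of 17 members with all 4 libraries (diamonds) and with each library left out in turn. Mmp14 hardly moves between fits, whereas Mmp9 ranges from -1.11 to -0.05 and Adamts1 from -0.59 to -0.07.

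Summed markers of fibroblasts, mural cells, skeletal muscle, epithelium, Schwann cells and cartilage were lower in the labelled libraries, as most members were. The same rule called 1.75% of all genes lower and 1.13% higher. Summed over 12 fibroblast markers, none of which is a member or a collagen, levels were 781 and 601 TPM in Osr1controls and 375 and 437 TPM in the libraries labelled Osr1GCE/GCE, and 4 of the 12 were called lower. Summed mural markers (8 genes, 2 called lower) were 543 and 297 TPM against 204 and 209 TPM, highest in Osr1controls replicate 1. Summed skeletal muscle markers (8 genes, 4 called lower) were 258 and 280 TPM against 130 and 139 TPM. Epithelial markers (6 genes, 0 called) were 147 and 166 TPM against 64.3 and 99.98 TPM, Schwann cell markers (5 genes, 1 called lower) 54.9 and 53.0 TPM against 38.2 and 37.2 TPM, and cartilage markers (6 genes, 0 called) 190 and 115 TPM against 98.0 and 102 TPM. LEC markers went the other way, with 5 of 10 called higher, and no marker of these 7 lists was without reads. Blood endothelial (BEC) markers (10 genes, 1 called higher) summed to 2161 and 1951 TPM in Osr1controls and to 2404 and 2302 TPM in the labelled libraries. Of these BEC markers 4 had a positive log2 fold change, among them *Cldn5*, *Kdr* and *Pecam1*. These had the highest mean levels of the list (863, 490 and 387 TPM). The other 6 were negative, so the higher sum was not shared by most of its markers. The sums of all 8 leukocyte markers and of the neutrophil markers, given with *Mmp9*, were not lower in the labelled libraries either. The 7 leukocyte markers other than *Mrc1* did sum to lower levels there (80.6 and 79.1 against 78.2 and 71.3 TPM).

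*Adamts2*, *Adamts12*, *Adamts16*, *Adamts17*, *Adamts18*, *Mmp11* and *Mmp16* ranked the 4 libraries in the same order as the summed fibroblast markers. That was 7 of 35 tested members and 9.30% of all genes tested. The order requires both labelled libraries to lie below both controls. Among genes where they did, it was found for 7 of 19 members and 1812 of 5623 genes. The shared order is therefore no test of a link to fibroblasts. The part of RNA from any of these other cell types in the values of the members was not tested. In bulk libraries fewer cells of a type and less RNA per cell cannot be told apart.

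**Figure D5:**
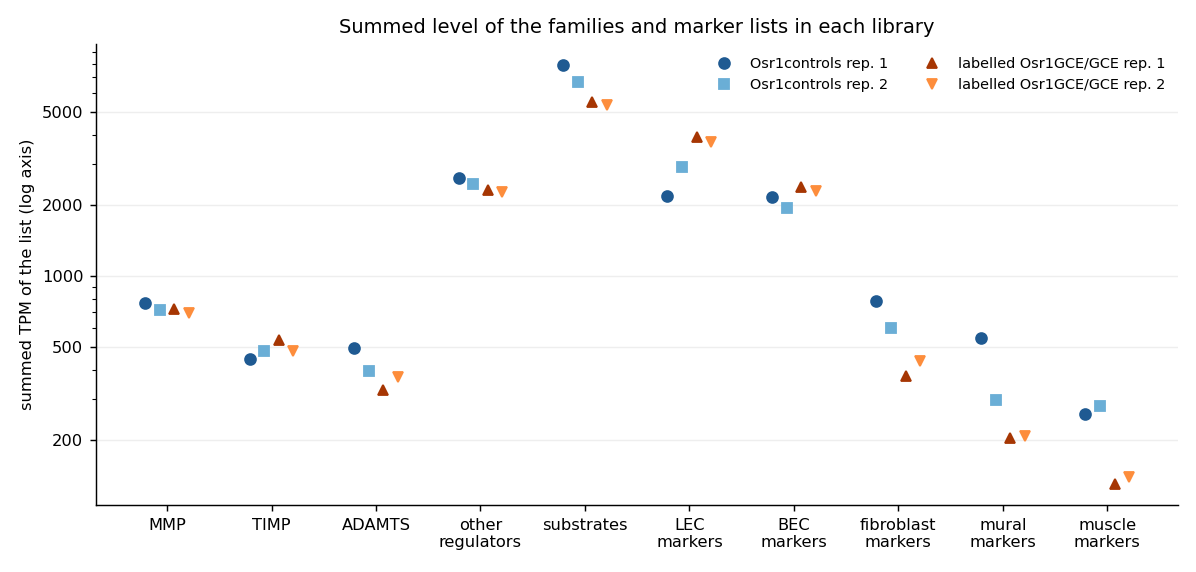
Summed level in TPM (log axis) of the MMP, TIMP and ADAMTS genes, of their regulators and substrates, and of marker lists, with 1 point for each library. Fibroblast, mural and muscle markers are lower in both libraries labelled Osr1GCE/GCE and LEC markers higher, while MMP sums lie between 699 and 766 TPM in all 4 libraries.

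Partners of the proteases were taken from a list of 36 regulators, of which 31 were tested. Of these 3 were called lower and 2 higher, against 1.75% lower and 1.13% higher of all genes. The median log2 fold change was -0.42, against -0.02 over all genes tested. *Plau*, which encodes the urokinase that turns plasminogen into plasmin, rose from 9398 and 10520 normalised counts in Osr1controls to 15131 and 16307 in the libraries labelled Osr1GCE/GCE (0.66, adjusted p = 0.0276). *Pcsk6*, a proprotein convertase, rose by 0.58 (adjusted p = 0.0444). *Pcolce*, which encodes an enhancer of the procollagen C-proteinase, fell from 1718 and 1348 to 641 and 663 (-1.22, adjusted p = 0.0262). *Lrp1*, an endocytic receptor that clears several MMPs and TIMPs, fell by 0.68 (adjusted p = 0.0276), and *Thbs1*, which encodes thrombospondin 1, fell by 0.42 (adjusted p = 0.0467).

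*Ccbe1*, the cofactor of ADAMTS3, had 343 and 271 normalised counts in Osr1controls and 233 and 214 in the libraries labelled Osr1GCE/GCE (-0.45, adjusted p = 0.212). *Vegfc*, the ligand that ADAMTS3 processes, had 336 and 279 against 266 and 249 (-0.25, adjusted p = 0.446). For both genes, as for *Adamts3*, the labelled libraries were below both controls and the difference did not pass the test.

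All 26 substrates in a list of collagens, proteoglycans and glycoproteins were tested. Of these 4 were called lower and 0 higher, against 1.75% lower and 1.13% higher of all genes. Their median was -0.47, against -0.02 over all genes tested. *Col1a1* and *Col5a1*, fibrillar collagen chains whose N-propeptides ADAMTS2 family enzymes remove, fell by 0.71 (adjusted p = 0.0343) and 0.61 (adjusted p = 0.0333). *Tnc*, which encodes tenascin C, fell by 0.39 (adjusted p = 0.0496), and *Lama5*, a laminin chain, fell by 0.74 (adjusted p = 0.0487). Fibrillar collagens are also abundant products of fibroblasts, whose markers were lower in the same libraries. Each of these 9 regulators and substrates lost its call without replicate 1 labelled Osr1GCE/GCE (adjusted p from 0.0584 to 0.261) and with limma without its trend and robust options (0.211 to 0.24). *Plau*, *Lrp1* and *Pcolce* were called in every other alternative. *Lama5* lost its call with TMM scaling (adjusted p = 0.0593). With a minimum mean normalised count of 50, *Pcsk6*, *Thbs1*, *Tnc* and *Lama5* lost theirs (adjusted p from 0.0505 to 0.0538). *Pcsk6*, *Thbs1*, *Col1a1*, *Tnc* and *Lama5* also lost their calls with edgeR (0.0541 to 0.0695), without replicate 2 labelled Osr1GCE/GCE (0.0540 to 0.107) and, as did *Col5a1*, without Osr1controls replicate 1 (0.0545 to 0.0927). *Thbs1* and *Tnc* lost theirs without Osr1controls replicate 2 as well (0.107 and 0.131).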

How the data were processed

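RNA of LECs was measured in 4 libraries. The authors used STAR (mm10) and featureCounts, and deposited gene counts divided by DESeq2 size factors, a signal scale of normalised counts. Versions of these tools: not given in the sources used here. Strand was not marked by the kit. Multiplication by the size factor (0.807 to 1.40) gave whole reads for all values, within 0.001. Of 55385 gene IDs, 55144 were found in GENCODE release 21, and TPM were computed from union exon lengths.

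Groups were compared with limma 3.58.1 (trend and robust options, R 4.3.3) on log2(normalised count + 1) for genes with a mean of at least 10, with Benjamini-Hochberg adjustment over all genes and the study's thresholds. Count models (edgeR 4.0.16, DESeq2 1.42.0) on recovered reads, scalings, filters, pseudocounts and libraries left out were alternatives. Fits were tested on simulated data. With 2 libraries a group, the p-values borrow their spread from all genes.

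Members, lists and alternatives were chosen with earlier results of these data known. Values per library are given for members called or with an adjusted p under 0.1, the 5 MMP, 4 TIMP and 8 ADAMTS genes with the highest TPM, and members with known vascular or activating roles. The motifs and the split by level were chosen after seeing the data. Promoters come from RefSeq. Protein sequences were not analysed here.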

Additional observations from a re-analysis of the deposited data

How the results depend on the processing

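With 2 libraries a group the counts of calls depended on the processing. Over all genes, calls lower and higher numbered 341 and 221, against 96 and 29 with the replicate block, 138 and 146 with edgeR, 842 and 663 with DESeq2, 0 and 0 with limma without its trend and robust options (3425 genes had an unadjusted p under 0.05) and 695 and 425 with no filter on low values. With each library left out they ranged from 12 to 1069 lower and from 13 to 391 higher. Members called lower numbered 0 with the replicate block, TMM scaling, edgeR and plain limma, 2 with library totals, 5 with DESeq2, 4 with no filter and 0 to 7 with a library left out, and members called higher numbered 1 with DESeq2 and 0 to 1 with a library left out. The replicate block left *Adamts2* at an adjusted p of 0.0770, and *Pcsk6*, *Thbs1*, *Col1a1*, *Col5a1*, *Tnc* and *Lama5* lost their calls with it (0.0557 to 0.124). Same-numbered libraries share only a number (correlation of their deviations -0.118). Crossing the numbers in the block, an alternative added after seeing the data, gave 766 genes lower and 516 higher, and 6 members lower. The 6 were *Mmp9*, *Mmp11*, *Adamts1*, *Adamts2*, *Adamts12* and *Adamts17*. The members' median was -0.39 with library totals, which moved the median of all genes to -0.09, and ranged from -0.46 to -0.23 with a library left out.

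Signs turned with library totals for *Mmp2* (-0.0073), *Adamts4* (-0.040) and *Adamts10* (-0.051) and with TMM scaling for *Mmp13* (0.0032). With a library left out, values ranged across 0 for *Mmp2* (-0.016 to 0.15), *Mmp13* (-0.43 to 0.42), *Mmp19* (-0.72 to 0.085), *Mmp25* (-0.38 to 0.18), *Adamts4* (-0.15 to 0.22), *Adamts6* (-0.24 to 0.14) and *Adamts10* (-0.11 to 0.16). No other tested member changed sign. The cause of these changes was not tested.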
